A study of Mus musculus with 9 samples.

Results

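The genes described here are those whose liver transcript level set untreated fat-fed mice apart from both lean mice and fat-fed mice given a citrus leaf extract. A gene was a member when all 3 livers of the untreated high-fat diet group (HFD) lay on the same side of the 3 normal diet livers (ND) and the 3 extract-treated livers (PRF), on the deposited log2 values. Considered were genes that averaged 1 FPKM or more over the 9 livers (FPKM is a fragment count scaled to transcript length and library size), which were 10048 of the 23183 genes in the tables. Of these, 858 were members, with the HFD livers above the other 6 in 541 genes and below them in 317 genes.

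The series holds liver mRNA profiles from 9 male mice of C57BL/6J, a standard inbred strain prone to obesity on fat-rich food, with 1 library per mouse. ND mice ate chow with 14% fat and HFD mice ate chow with 60% fat for 10 weeks, and PRF mice ate the 60% fat chow for the same 10 weeks and were given 50 mg/kg of PRF each day in the last 5 weeks. PRF is a fraction rich in polymethoxyflavones, which are flavones carrying several methoxy groups, prepared from leaves of the citrus tree Jinkyool. All mice were 100 days old, and the libraries carry the numbers 1, 2 and 3 (HFD), 6, 7 and 9 (ND) and 3, 9 and 10 (PRF), which do not pair mice across groups.

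Livers of fat-fed animals take up fatty acids, store them as triglyceride in lipid droplets and burn them in mitochondria and peroxisomes. The nuclear receptor PPAR-alpha, which binds fatty acids, switches on genes for these steps, among them acyl-CoA thioesterases, ketone body enzymes and the Cyp4a hydroxylases of omega-oxidation. Male and female mouse livers also differ in many genes, through the pattern of growth hormone release, and several cytochrome P450 and urinary protein genes follow this pattern.

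The values are read as log2(FPKM + 1), and each gene is given below in the order HFD livers 1, 2 and 3, ND livers 6, 7 and 9, and PRF livers 3, 9 and 10. The added constant of 1 is inferred from a lowest value of exactly 0. Read counts were not used here, so absolute depth is unknown, and relative depth estimated from the smallest values was between 0.966 and 1.60 of that of HFD liver 1. Pearson's r across genes was 0.980 to 0.986 between HFD livers, 0.966 to 0.981 between HFD and ND livers, and 0.962 to 0.976 between HFD and PRF livers. Summed levels of 16 hepatocyte markers, Apoa1 the most abundant, were 34118, 28037 and 24226 FPKM in the HFD livers, 34950, 28076 and 25386 in the ND livers, and 44314, 35557 and 29586 in the PRF livers. Albumin (Alb), a defining hepatocyte marker, was listed at 0 in all 9 livers, so a listed 0 is given as such and not read as absence. HFD livers before PRF treatment were not analysed here, so a change that PRF reversed and a change that PRF prevented from growing cannot be told apart.

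The 541 genes with the HFD livers above the others were 5.38% of the genes tested, the 317 genes with the HFD livers below them were 3.15%, and both together were 8.54%. These counts describe the rule and carry no test. In a limma fit of the 3 HFD livers against the other 6 pooled, 81 genes were called higher (0.806% of genes tested) and 22 were called lower (0.219%) at an adjusted p under 0.05. That fit uses the same values as the separation, so neither supports the other. The numbers called depended on single livers. They were 14 higher and 4 lower without HFD liver 2, 15 and 7 without HFD liver 3, and 138 and 29 without ND liver 6. Without PRF liver 10 they were 41 and 19, without PRF liver 3 they were 40 and 19, without ND liver 7 they were 51 and 21, and without PRF liver 9 they were 75 and 37. Fitting ND and PRF as separate groups, with HFD set against their mean, gave 185 higher and 66 lower, since the pooled fit counts the difference between ND and PRF as error. The numbers of genes that met the separation rule were 980 higher and 791 lower without HFD liver 1 and 852 and 510 without ND liver 6. A rule over fewer livers is easier to meet, but the numbers were 590 and 365 without ND liver 7. The cause of the larger moves was not tested. The lower number was also moved by HFD liver 2 (506 without it) and HFD liver 3 (497 without it). A minimum of 10 FPKM left 333 higher and 111 lower genes.

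Most of the differences were small. The median difference between the HFD mean and the mean of the other 6 livers was 0.37 in the 541 higher genes, with quartiles of 0.27 and 0.58, and -0.33 in the 317 lower genes, beside 0.0003 over all genes tested. An absolute difference of at least 1 was found in 52 of the higher and 21 of the lower genes, and in 123 of all genes tested. The median level was 15.3 FPKM in the higher genes, 6.14 FPKM in the lower genes and 7.30 FPKM in all genes tested. HFD liver 1 was the HFD liver nearest to the other groups in 44.2% of the higher and 41.0% of the lower genes, HFD liver 2 in 32.0% and 34.7%, and HFD liver 3 in 23.8% and 24.3%. On the other side, ND liver 6 was nearest to the HFD livers in 27.9% of the higher genes, and PRF liver 9 in 24.0% of the lower genes.

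Among genes with an absolute difference of at least 1, the members nearest to the limit of the rule were Mup17 and Plin2. Mup17 was 0.02, 4.71 and 3.32 in HFD livers, 0, 0 and 0 in ND livers, and 0, 0 and 0 in PRF livers, which places HFD liver 1 next to livers listed at 0. Plin2, a lipid droplet coat gene, was 8.11, 9.0 and 8.78 in HFD livers, 8.09, 7.93 and 7.65 in ND livers, and 7.03, 7.45 and 6.98 in PRF livers, and HFD liver 1 lay just above ND liver 6. The genes just outside were Moxd1 and Rnu6. Moxd1 was 0, 0 and 0 in HFD livers, 0.18, 0 and 0.27 in ND livers, and 3.26, 5.34 and 3.96 in PRF livers, so that ND liver 7 met the HFD livers, also listed at 0. Rnu6, a spliceosomal RNA gene, was listed at 22.44 in HFD liver 2 and at 0 in the other livers, and it is not a member.

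Breakdown of fatty acids in mitochondria yields acetyl-CoA and energy. Of 27 tested genes of mitochondrial fatty acid oxidation, 16 (59.3%) had the HFD livers above the other 6 and the median difference of the 27 genes was 0.44, beside 0.0003 over all genes tested. Hadh, which oxidises hydroxyacyl-CoA of short and medium chain length, was 8.23, 8.24 and 8.34 in HFD livers, 7.69, 7.51 and 7.47 in ND livers, and 7.51, 7.73 and 7.31 in PRF livers. Each HFD liver exceeded each other liver, and ND and PRF livers overlapped. On average the HFD livers exceeded the other 6 by 0.73 (standard error 0.11, adjusted p 0.0138), and the adjusted p was 0.086 without HFD liver 2 and 0.116 without HFD liver 3. Acadm, the medium-chain acyl-CoA dehydrogenase, was 8.04, 7.92 and 8.18 in HFD livers, 7.72, 7.48 and 7.27 in ND livers, and 7.24, 7.37 and 7.1 in PRF livers. Its HFD livers were highest and ND liver 6 came nearest to them. Its HFD mean exceeded that of the other 6 livers by 0.68 (standard error 0.14, adjusted p 0.0483), and the adjusted p was between 0.0657 and 0.254 with any 1 of HFD livers 1, 2 or 3, ND livers 7 or 9 or PRF livers 3, 9 or 10 left out. The Acadm call also ended with no minimum level (0.0738) and with a pseudocount of 0.1 (0.0512), and neither Hadh nor Acadm exceeded a fold of 2.

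Acsl1, which activates long-chain fatty acids to their CoA esters, was 8.53, 8.36 and 8.77 in HFD livers, 7.91, 7.97 and 7.81 in ND livers, and 7.04, 7.53 and 7.74 in PRF livers. The carnitine importer Slc22a5 was 3.75, 3.61 and 4.03 in HFD livers, 3.35, 3.44 and 2.9 in ND livers, and 2.65, 3.4 and 2.94 in PRF livers. Levels were highest in the HFD livers for both genes, with differences of 0.88 (adjusted p 0.0698) for Acsl1 and 0.68 (adjusted p 0.109) for Slc22a5, neither of them called. Cpt1a, the rate-limiting carnitine transferase at the mitochondrial membrane, was 7.33, 7.29 and 7.13 in HFD livers, 6.65, 6.58 and 6.73 in ND livers, and 6.46, 7.32 and 6.64 in PRF livers. Cpt1a is not a member, because PRF liver 9 reached the level of the HFD livers, while the remaining ND and PRF livers lay below them.

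Ketone bodies are made from the acetyl-CoA that this pathway yields. Of 8 tested genes of ketone body synthesis and transport, 5 (62.5%) had the HFD livers above the others, 0 had them below, and the median difference was 0.56. Slc16a7, a monocarboxylate transporter at chr10:125219270-125389465, was 5.82, 5.49 and 5.62 in HFD livers, 4.74, 4.64 and 4.69 in ND livers, and 4.41, 4.58 and 4.58 in PRF livers. The HFD livers stood clear of the others, and every PRF liver lay below every ND liver. Compared with the other 6 livers, the HFD mean was higher by 1.04 (standard error 0.10, adjusted p 0.0016), and the call was made in each of the 9 fits that left out 1 liver, with an adjusted p of 0.0156 at most. Acat1, the mitochondrial acetoacetyl-CoA thiolase, was 7.74, 7.69 and 7.67 in HFD livers, 6.94, 6.97 and 7.06 in ND livers, and 6.72, 6.86 and 7.01 in PRF livers. Its HFD livers were within a narrow band above ND and PRF livers, which overlapped each other. For Acat1 the HFD mean lay 0.78 above that of the other 6 livers (standard error 0.09, adjusted p 0.00577), which was called in each fit without 1 liver but is below a fold of 2.

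Bdh1, which interconverts acetoacetate and hydroxybutyrate, was 6.83, 6.9 and 6.83 in HFD livers, 6.5, 6.32 and 6.12 in ND livers, and 6.12, 6.19 and 6.21 in PRF livers. It was highest in the HFD livers, and ND liver 6 came nearest. The HFD mean was 0.61 above the mean of the other 6 livers (standard error 0.10, adjusted p 0.0206), and the adjusted p was 0.0506 without HFD liver 1, 0.115 without HFD liver 2, 0.124 without HFD liver 3 and 0.0502 without PRF liver 10. The difference of Bdh1 is below a fold of 2.

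Acyl-CoA thioesterases split fatty acyl-CoA into free fatty acid and coenzyme A. Of 10 tested genes of this family, 5 (50%) had the HFD livers above the others, 0 had them below, the median difference was 0.44, and the count was 8 without ND liver 6. The members Acot2, Acot1, Acot4 and Acot3 lie side by side at chr12:83987861-84060402 (GRCm38), and how reads of these similar genes were shared among them is uncertain. Acot3, a peroxisomal form, was 5.34, 5.65 and 5.77 in HFD livers, 3.91, 3.4 and 2.78 in ND livers, and 1.5, 1.8 and 0.65 in PRF livers. Levels formed 3 separate bands, HFD above ND and ND above PRF. On average the HFD livers exceeded the other 6 by 3.25 (standard error 0.62, adjusted p 0.0405), and the adjusted p was between 0.0622 and 0.21 with any 1 of HFD livers 1, 2 or 3, ND liver 9 or PRF livers 3 or 9 left out. Acot4, also peroxisomal, was 5.11, 5.34 and 5.56 in HFD livers, 4.1, 3.94 and 3.84 in ND livers, and 3.05, 3.39 and 2.88 in PRF livers, in the same order of groups. Its HFD mean exceeded that of the other 6 livers by 1.81 (standard error 0.26, adjusted p 0.0132), and the adjusted p was 0.0804 without HFD liver 2 and 0.111 without HFD liver 3.

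Acot2, the mitochondrial form, was 3.22, 3.66 and 3.45 in HFD livers, 2.6, 2.07 and 2.11 in ND livers, and 0.98, 1.67 and 1.22 in PRF livers. Acot1, the cytosolic form, was 4.62, 4.71 and 5.02 in HFD livers, 4.39, 4.24 and 3.55 in ND livers, and 1.61, 2.57 and 2.7 in PRF livers. In both genes the PRF livers lay below all ND livers, and for Acot1 ND liver 6 came close to the lowest HFD liver. The difference was 1.67 (adjusted p 0.0389) for Acot2, and the adjusted p was between 0.0568 and 0.197 with any 1 of HFD livers 1, 2 or 3, ND livers 7 or 9 or PRF livers 9 or 10 left out. With a pseudocount of 0.1 the adjusted p was 0.0696 for Acot3 and 0.0607 for Acot2, and with no minimum level it was 0.0829 for Acot3 and 0.0816 for Acot2. Acot1 was not called (difference 1.61, adjusted p 0.196).

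In peroxisomes, which shorten very long fatty acids, 12 of 39 tested genes (30.8%) had the HFD livers above the others and 1 (2.56%) had them below, with a median difference of 0.24. Pex11a, which drives peroxisome division, was 5.76, 6.02 and 6.4 in HFD livers, 5.06, 5.22 and 5.0 in ND livers, and 4.03, 4.52 and 4.34 in PRF livers. HFD livers were highest and PRF livers lowest, with no overlap of the groups. Compared with the other 6 livers, the HFD mean was higher by 1.37 (standard error 0.26, adjusted p 0.0405), and the adjusted p was between 0.0553 and 0.232 with any 1 of HFD livers 1, 2 or 3, ND liver 9 or PRF livers 9 or 10 left out, and with no minimum level it was 0.0808. Crat, a carnitine acetyltransferase of mitochondria and peroxisomes, was 4.05, 4.38 and 4.29 in HFD livers, 3.07, 3.2 and 2.94 in ND livers, and 2.44, 3.25 and 2.47 in PRF livers. Its HFD livers were highest, and PRF liver 9 lay just above the ND livers while the other two PRF livers were lower. For Crat the HFD mean lay 1.35 above that of the other 6 livers (standard error 0.19, adjusted p 0.0132), and the adjusted p was 0.086 without HFD liver 2 and 0.111 without HFD liver 3.

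The peroxisomal fatty acid importer Abcd2 was 3.61, 3.93 and 3.5 in HFD livers, 1.6, 1.42 and 2.86 in ND livers, and 2.47, 2.86 and 2.11 in PRF livers. ND livers 6 and 7 were the lowest, ND liver 9 was at the level of the PRF livers, and all were under the HFD livers (difference 1.46, adjusted p 0.0646, not called). Acaa1b, a peroxisomal thiolase, was 9.7, 9.81 and 9.94 in HFD livers, 9.57, 9.22 and 9.36 in ND livers, and 7.85, 8.44 and 7.89 in PRF livers. Its HFD and ND livers were close and the PRF livers were clearly lower, so it meets the rule with a difference of 1.1 (adjusted p 0.22, not called). The peroxisomal gene with the HFD livers below the others was Nudt7, which cleaves coenzyme A and its esters, at 8.64, 8.61 and 8.72 in HFD livers, 9.5, 9.12 and 9.32 in ND livers, and 9.04, 8.97 and 9.47 in PRF livers. All HFD livers lay below the others, and the difference was -0.58 (adjusted p 0.0862, not called). Without ND liver 9, 2 genes of the list had the HFD livers lowest. Ehhadh, the bifunctional enzyme of peroxisomal oxidation, was 6.69, 6.81 and 7.09 in HFD livers, 7.17, 6.76 and 6.99 in ND livers, and 5.66, 6.08 and 5.71 in PRF livers and is not a member, because the HFD and ND livers overlapped.

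Omega-oxidation begins at the far end of the fatty acid chain. Of 13 tested genes, 2 (15.4%) had the HFD livers above and 1 (7.69%) had them below the other 6, with a median difference of 0.09, and these counts were 4 above without ND liver 6, 3 below without HFD liver 1, and 2 below under quantile normalization. Aldh3a2, which oxidises fatty aldehydes, was 7.6, 7.81 and 8.14 in HFD livers, 7.09, 6.97 and 6.8 in ND livers, and 6.31, 6.69 and 6.24 in PRF livers. HFD livers were highest and PRF livers lowest. The HFD mean was 1.17 above the mean of the other 6 livers (standard error 0.20, adjusted p 0.0272), and the adjusted p was 0.115 without HFD liver 2, 0.179 without HFD liver 3, 0.0504 without ND liver 9 and 0.0501 without PRF liver 3, and with no minimum level it was 0.0558. Cyp4a14, a fatty acid hydroxylase, was 8.05, 8.17 and 8.28 in HFD livers, 6.73, 6.5 and 5.97 in ND livers, and 1.62, 4.41 and 2.38 in PRF livers. HFD values were highest, the ND livers followed, and the PRF livers were far lower and spread widely. The pooled difference of 3.56 was not called (adjusted p 0.154), in a fit that counts the distance between ND and PRF as error. In the 3-group limma fit HFD minus ND was 1.76 and was not called either (adjusted p 0.165). There HFD minus PRF was 5.36 (adjusted p 0.00167), in a comparison that shares the HFD livers. Cyp4a12b, a relative with male-biased expression, was 2.23, 1.04 and 2.2 in HFD livers, 6.28, 4.89 and 5.23 in ND livers, and 2.89, 3.17 and 3.49 in PRF livers. Here the HFD livers were lowest and the PRF livers lay between HFD and ND (difference -2.5, adjusted p 0.121, not called). Reads of the Cyp4a genes may be shared among similar copies. Cyp4a10 was 7.35, 8.04 and 8.2 in HFD livers, 7.71, 6.85 and 6.54 in ND livers, and 2.94, 5.31 and 3.18 in PRF livers and is not a member, because HFD and ND livers overlapped.

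Ppara, which encodes the receptor itself, was the 1 gene of 16 tested PPAR-alpha and partner regulators (6.25%) with the HFD livers above the others, and the median difference of the list was 0.12. It was 6.18, 6.26 and 6.27 in HFD livers, 5.68, 5.5 and 5.78 in ND livers, and 5.68, 5.99 and 5.49 in PRF livers. HFD livers lay within a narrow band, and PRF liver 9 was the nearest of the others. The difference was 0.55 with an adjusted p of 0.0547, which is not called, and under quantile normalization Ppara no longer met the rule. The count for this list was 5 without HFD liver 1 and 2 without HFD liver 3 or PRF liver 9. Vnn1, a pantetheinase that recycles the vitamin part of coenzyme A and a known PPAR-alpha target, was 5.97, 6.5 and 6.41 in HFD livers, 4.92, 4.89 and 4.87 in ND livers, and 4.68, 4.91 and 4.3 in PRF livers. The HFD livers stood above the other 6, which overlapped. On average the HFD livers exceeded the other 6 by 1.53 (standard error 0.16, adjusted p 0.00291), called in each of the 9 fits without 1 liver. In the list of coenzyme A synthesis and pantetheinases, 3 of 10 tested genes (30%) had the HFD livers above and 1 (10%) below, with a median difference of 0.24. The others above were Pank1, the first kinase of coenzyme A synthesis (difference 0.58, adjusted p 0.0609), and Ppcdc, a later enzyme (difference 0.21, adjusted p 0.393), neither of them called.

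**Figure D1:**
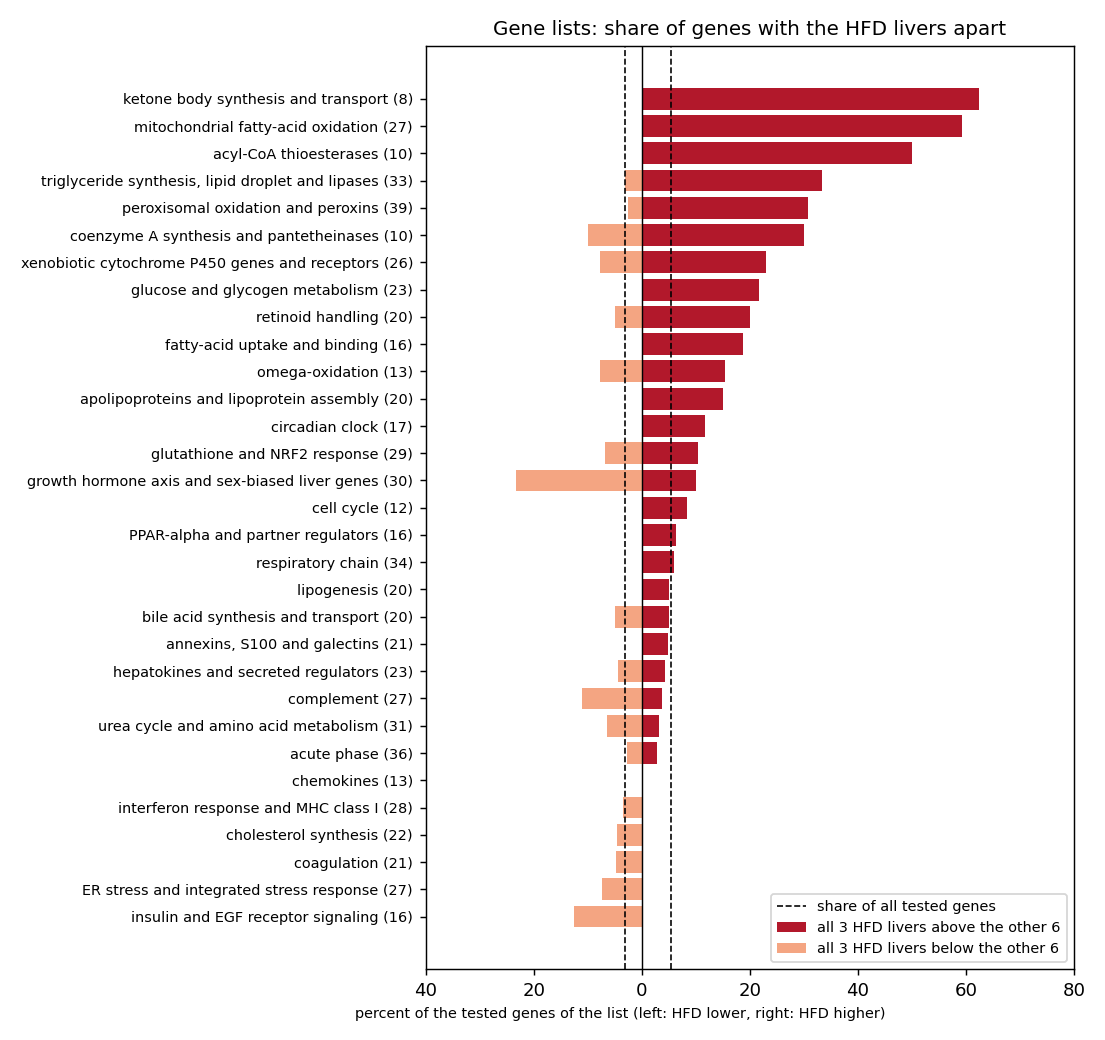
Percent of the tested genes of each list with all 3 HFD livers above (right) or below (left) the other 6, with the number of tested genes in brackets and dashed lines at the share over all genes tested (5.38% above, 3.15% below). The ketone body list (62.5%) reaches farthest to the right.

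PPAR-alpha binds a pair of half-sites in the same direction with 1 base between them. The letters AGGNCA, 1 base of any kind and AGGNCA again were searched on both strands of RefSeq promoters (GRCm38.p6, 250 bases before to 50 bases after each start), and a match is a description of the letters and shows no binding. Of 8089 tested genes with a promoter in the table, 30 (0.371%) held a match, and of the 435 of the 541 higher genes with a promoter, 3 (0.690%) did. Of the 317 lower genes, 253 (79.8%, against 80.4% of the higher) had a promoter, just under the 80% set as the limit, so their search counts as void, as for the omega-oxidation and peroxisomal lists (8 of 13 and 28 of 39), but it gave 2 matches (0.791%), and no difference from the higher genes is drawn. Of 10 thioesterase genes, 9 had a promoter and 0 held a match. Printing had been planned only for genes of the omega-oxidation, peroxisomal and thioesterase lists that hold a match, and 0 genes did in each. The 3 higher genes with a match lie outside that plan. They are printed because they show the letters in question, and they were singled out after the match was found. They are Apoc2, an activator of lipoprotein lipase (chr7:19678043-19678071, minus strand), Pbld1 (chr10:63061400-63061428, plus strand) and Srp54a, a subunit of the signal recognition particle (chr12:55080370-55080398, plus strand), 29 bases each with the match in capitals.
Apoc2: ttctcttgAGGCCAGAGGTCAaccttccg
Pbld1: ctctgcaaAGGTCAAAGGACAtccaatac
Srp54a: gaacactaAGGTCAAAGGTCAgctccagc

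Apoc2 was 8.97, 9.09 and 8.88 in HFD livers, 8.7, 7.94 and 7.79 in ND livers, and 8.38, 8.43 and 7.91 in PRF livers, highest in the HFD livers with a difference of 0.79 (adjusted p 0.0919, not called). Pbld1 was 7.07, 7.02 and 7.14 in HFD livers, 6.94, 6.85 and 6.76 in ND livers, and 6.66, 6.84 and 6.72 in PRF livers. Srp54a was 1.88, 1.76 and 1.66 in HFD livers, 1.54, 1.45 and 1.61 in ND livers, and 1.3, 1.62 and 1.66 in PRF livers. HFD livers were highest in all 3 genes, as the rule requires, and the differences of Pbld1 (0.28, adjusted p 0.168) and Srp54a (0.24, adjusted p 0.312) were not called, with HFD liver 3 and PRF liver 10 equal for Srp54a to the digits printed.

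Triglyceride synthesis, lipid droplet and lipase genes had the HFD livers above the others in 11 of 33 tested genes (33.3%) and below in 1 (3.03%), with a median difference of 0.35, and under quantile normalization the number above was 7. G0s2, an inhibitor of the main droplet lipase, was 7.68, 8.63 and 8.51 in HFD livers, 7.07, 6.75 and 7.08 in ND livers, and 6.46, 6.57 and 6.12 in PRF livers. HFD livers 2 and 3 were far above the ND and PRF livers, and HFD liver 1 lay between. Its HFD mean exceeded that of the other 6 livers by 1.6 (standard error 0.25, adjusted p 0.0186), and the adjusted p was 0.114 without HFD liver 2 and 0.141 without HFD liver 3. Plin4, a droplet coat protein, was 1.85, 1.93 and 2.18 in HFD livers, 1.07, 0.92 and 0.78 in ND livers, and 0.61, 0.71 and 0.13 in PRF livers. It was low everywhere and highest in the HFD livers. Compared with the other 6 livers, the HFD mean was higher by 1.28 (standard error 0.19, adjusted p 0.0132), and the adjusted p was 0.0724 without HFD liver 2 and 0.111 without HFD liver 3, and with a pseudocount of 0.1 it was 0.0696. Cidec, which promotes droplet growth, was 1.99, 3.74 and 3.79 in HFD livers, 1.85, 1.42 and 1.9 in ND livers, and 0.08, 0.90 and 0.36 in PRF livers. HFD livers 2 and 3 were high, while HFD liver 1 lay just above the ND livers, and the difference of 2.09 was not called (adjusted p 0.0805). Plin2, the common coat protein of liver droplets, had a difference of 1.11 (adjusted p 0.0923, not called). HFD liver 1 was the lowest HFD liver for G0s2, Plin4, Cidec and Plin2, as it was for the summed adipocyte markers given below.

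Fatty acid uptake and binding genes had the HFD livers above the others in 3 of 16 tested genes (18.8%), with a median difference of 0.13, and 5 above without HFD liver 1. Fabp2, a fatty acid binding protein best known from the intestine, was 7.89, 8.16 and 8.07 in HFD livers, 6.82, 6.51 and 6.99 in ND livers, and 6.99, 6.66 and 7.14 in PRF livers. The HFD livers were highest and the other 6 overlapped. For Fabp2 the HFD mean lay 1.19 above that of the other 6 livers (standard error 0.14, adjusted p 0.00577), called in each of the 9 fits without 1 liver with an adjusted p of 0.0499 at most. Cd36, a fatty acid translocase of the cell surface, was 5.08, 6.34 and 6.55 in HFD livers, 4.42, 4.51 and 4.47 in ND livers, and 3.61, 3.78 and 3.66 in PRF livers. HFD livers 2 and 3 were higher than HFD liver 1, which was still above the ND livers, and the PRF livers were lowest. The HFD mean was 1.92 above the mean of the other 6 livers (standard error 0.33, adjusted p 0.0272), and the adjusted p was 0.142 without HFD liver 2, 0.178 without HFD liver 3, 0.0545 without PRF liver 3 and 0.0577 without PRF liver 10, and with no minimum level it was 0.0623. Got2, which also serves in fatty acid uptake at the plasma membrane, had a difference of 0.29 (adjusted p 0.177, not called).

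Of 20 tested apolipoprotein and lipoprotein assembly genes, 3 (15%) had the HFD livers above the others, with a median difference of 0.08, and 7 did so without ND liver 6. Apoa4, an apolipoprotein of triglyceride-rich particles, was 9.52, 9.72 and 8.58 in HFD livers, 6.57, 5.88 and 6.81 in ND livers, and 6.61, 7.54 and 7.37 in PRF livers. All HFD livers were far above the others, HFD liver 3 least so. On average the HFD livers exceeded the other 6 by 2.48 (standard error 0.36, adjusted p 0.0132), and the adjusted p was 0.086 without HFD liver 2. Apob, the structural protein of very low density lipoprotein, was 9.37, 9.21 and 9.23 in HFD livers, 8.24, 9.04 and 9.12 in ND livers, and 9.12, 9.07 and 9.02 in PRF livers. It is a member by a small margin, with ND liver 6 lower than all other livers, and the difference of 0.33 was not called (adjusted p 0.459).

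The liver also makes fatty acids from sugar. Of 20 tested lipogenesis genes, 0 had the HFD livers below the others, and the median difference was 0.22. Fasn, the fatty acid synthase, was 4.62, 5.07 and 3.78 in HFD livers, 5.17, 4.25 and 5.68 in ND livers, and 4.06, 3.69 and 3.46 in PRF livers. Scd1, the stearoyl-CoA desaturase, was 10.01, 10.51 and 9.45 in HFD livers, 11.41, 10.25 and 12.05 in ND livers, and 9.1, 9.95 and 8.48 in PRF livers. In both genes the HFD livers overlapped ND and PRF livers, while every PRF liver lay below every ND liver and ND liver 9 was the highest. Srebf1, a regulator of lipogenesis, was 5.83, 5.98 and 5.59 in HFD livers, 5.6, 5.25 and 5.66 in ND livers, and 6.36, 5.22 and 5.4 in PRF livers, again with overlap.

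Of 22 tested cholesterol synthesis genes, 1 (4.55%) had the HFD livers below the others, while the median difference was -0.43, beside 0.0003 over all genes tested. Without HFD liver 1 the number below was 7, and without PRF liver 3 it was 2. HFD liver 3 was the lowest HFD liver in every gene of this list except Insig2. For Msmo1 the HFD livers were at 7.03, 6.61 and 5.40, and for Fdps at 7.59, 7.24 and 6.09. The median difference therefore leans on HFD liver 3, and it is not given without that liver. The member was Cyp51, the lanosterol demethylase, at 4.54, 4.57 and 3.61 in HFD livers, 4.83, 4.9 and 5.48 in ND livers, and 4.86, 5.19 and 4.98 in PRF livers. HFD liver 3 was the lowest and HFD livers 1 and 2 lay just under ND liver 6 (difference -0.80, adjusted p 0.116, not called). Sqle, the squalene epoxidase, was 3.88, 3.22 and 1.69 in HFD livers, 4.35, 3.6 and 4.8 in ND livers, and 4.03, 4.63 and 3.61 in PRF livers. HFD liver 3 was the lowest for Sqle and HFD liver 1 overlapped the other groups.

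Glucose and glycogen metabolism had the HFD livers above the others in 5 of 23 tested genes (21.7%), with a median difference of 0.33, and 8 above without HFD liver 3. Ppp1r3b, which targets a phosphatase to glycogen, was 6.14, 5.58 and 6.11 in HFD livers, 4.51, 4.07 and 4.78 in ND livers, and 5.01, 4.58 and 4.74 in PRF livers. HFD livers were highest and ND and PRF livers overlapped. Its HFD mean exceeded that of the other 6 livers by 1.33 (standard error 0.20, adjusted p 0.0134), and the adjusted p was 0.111 without HFD liver 3. Pcx, the pyruvate carboxylase, was 7.08, 7.24 and 7.11 in HFD livers, 6.6, 6.48 and 6.65 in ND livers, and 6.61, 6.76 and 6.37 in PRF livers, with the HFD livers in a narrow band above the rest. Compared with the other 6 livers, the HFD mean was higher by 0.56 (standard error 0.10, adjusted p 0.0288), which is below a fold of 2, and the adjusted p was between 0.0523 and 0.162 with any 1 of HFD livers 1, 2 or 3, ND liver 7 or PRF livers 3 or 10 left out, and under quantile normalization it was 0.0791. Pck1, which controls glucose production, was 9.64, 8.55 and 8.75 in HFD livers, 9.59, 8.7 and 8.74 in ND livers, and 9.35, 9.71 and 8.89 in PRF livers, and its groups overlapped.

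Cytochrome P450 enzymes of the liver clear drugs and steroids, and several of their genes differ between the sexes. Of 26 tested xenobiotic cytochrome P450 genes and receptors, 6 (23.1%) had the HFD livers above the others and 2 (7.69%) below, with a median difference of 0.09, and the number above was 3 at a minimum of 10 FPKM. Cyp2b9, a P450 gene with female-biased expression at chr7:26173411-26210661, was 6.57, 7.14 and 7.41 in HFD livers, 2.84, 1.08 and 0.66 in ND livers, and 1.7, 0.88 and 0.55 in PRF livers. Its HFD livers were far above all others, and the remaining 6 overlapped with ND liver 6 as the highest. For Cyp2b9 the HFD mean lay 5.76 above that of the other 6 livers (standard error 0.45, adjusted p 0.000591), and in the 3-group fit HFD exceeded ND by 5.52 and PRF by 6.0, comparisons that share the HFD livers. Cyp2b13, its neighbour with like sex bias, was 1.66, 2.25 and 3.53 in HFD livers, 0.19, 0.12 and 0.06 in ND livers, and 0.07, 0 and 0 in PRF livers. HFD levels were spread but clear of the others, which were at or near 0. The HFD mean was 2.41 above the mean of the other 6 livers (standard error 0.31, adjusted p 0.00782), and both genes were called in each of the 9 fits without 1 liver. Cyp2b13 met the minimum of 1 FPKM (mean 1.87) only through its HFD livers, the other 6 being at 0.14 FPKM or less, and its adjusted p was 0.0257 with no minimum level. Without HFD liver 3 its mean of 0.781 would miss the minimum, which those fits did not apply anew.

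Cyp2a4, a steroid hydroxylase with female bias in the same stretch of chromosome 7 (chr7:26061497-26315088), was 1.14, 3.12 and 2.36 in HFD livers, 0.55, 0.42 and 0.20 in ND livers, and 0.22, 0.32 and 0.08 in PRF livers. HFD livers 2 and 3 were higher than HFD liver 1. On average the HFD livers exceeded the other 6 by 1.91 (standard error 0.33, adjusted p 0.0272), and the adjusted p was between 0.0549 and 0.171 with any 1 of HFD livers 2 or 3, ND livers 7 or 9 or PRF livers 3 or 10 left out. Cyp2c38, a relative on chromosome 19, was 4.5, 5.33 and 5.07 in HFD livers, 3.6, 3.92 and 3.62 in ND livers, and 2.78, 3.19 and 2.61 in PRF livers. HFD livers were highest and PRF livers lowest, without overlap. Its HFD mean exceeded that of the other 6 livers by 1.68 (standard error 0.29, adjusted p 0.0276), and the adjusted p was 0.148 without HFD liver 2, 0.171 without HFD liver 3 and 0.0502 without PRF liver 3. With no minimum level the adjusted p was 0.0590 for Cyp2a4 and 0.0640 for Cyp2c38, and reads of Cyp2a, Cyp2b and Cyp2c genes may be shared among similar copies.

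The 2 xenobiotic P450 genes with the HFD livers below are outside the rule for named genes and were singled out after their values were seen. Cyp2c70 was 7.34, 7.25 and 7.16 in HFD, 7.95, 7.75 and 8.25 in ND and 7.95, 7.84 and 8.23 in PRF. Its difference of -0.74 (standard error 0.13, adjusted p 0.0272), below a fold of 2, was called, but not without HFD livers 1, 2 or 3 (0.0532, 0.128 and 0.178) or PRF livers 3 or 10 (0.0545 and 0.0523). Cyp1a2 was 7.36, 6.41 and 7.11 in HFD, 8.76, 8.46 and 7.87 in ND and 8.05, 7.66 and 8.37 in PRF, and its difference of -1.23 (0.26, adjusted p 0.0609) was not called. Without PRF liver 9 Cyp1a2 was called (difference -1.34, adjusted p 0.0434).

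**Figure D2:**
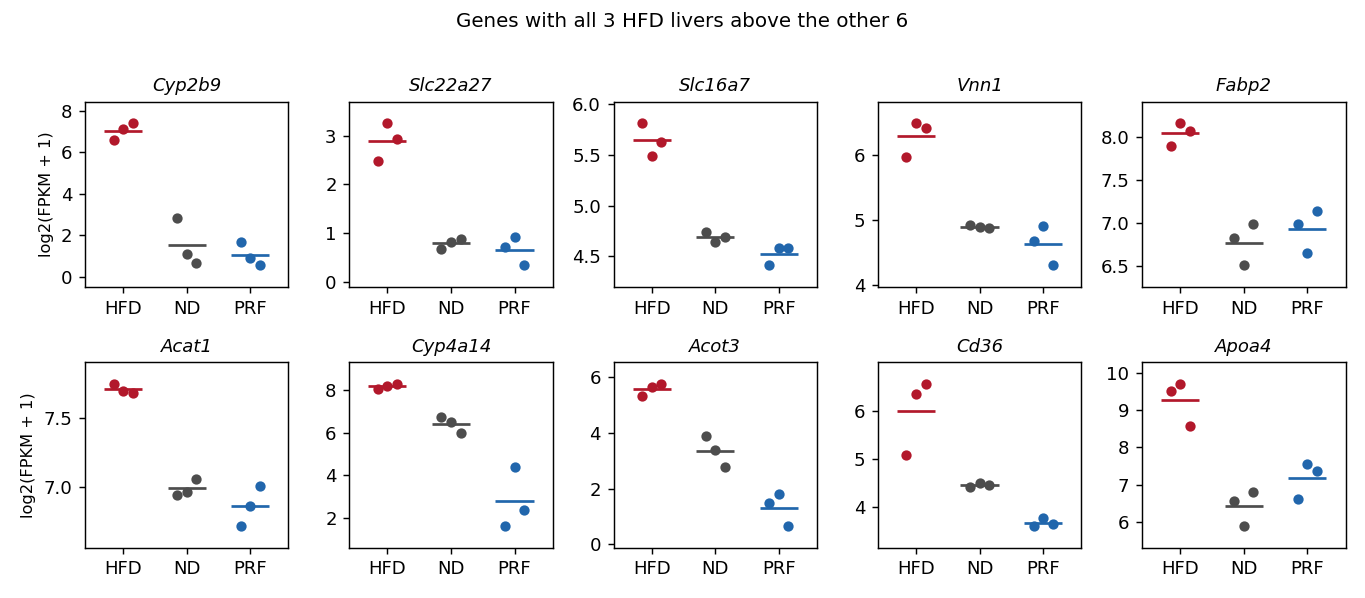
Level in log2(FPKM + 1) of selected genes with all 3 HFD livers above the other 6, with points for livers and lines for group means. Cyp2b9 lies between 6.57 and 7.41 in the HFD livers and at 2.84 or less in the ND and PRF livers.

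In the list of the growth hormone axis and sex-biased liver genes, 3 of 30 tested genes (10%) had the HFD livers above the others and 7 (23.3%) below, with a median difference of -0.13. The number above was 1 at a minimum of 10 FPKM and 5 with no minimum. Serpina1e, a serine protease inhibitor with male-biased expression, was 9.08, 7.49 and 6.89 in HFD livers, 11.75, 12.05 and 11.38 in ND livers, and 11.78, 11.64 and 12.63 in PRF livers. HFD livers were far below all others, HFD liver 1 least so. HFD minus the other 6 livers was -4.05 on average (standard error 0.42, adjusted p 0.00291), called in each of the 9 fits without 1 liver. Hsd3b5, a male-biased steroid dehydrogenase, was 5.53, 4.65 and 3.57 in HFD livers, 7.3, 6.93 and 7.54 in ND livers, and 7.39, 6.79 and 8.0 in PRF livers. HFD values were lowest and spread widely. The HFD mean minus the mean of the other 6 livers was -2.75 (standard error 0.38, adjusted p 0.0111), and the adjusted p was 0.0669 without HFD liver 2.

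Selenbp2, a selenium-binding protein with male-biased expression, was 4.72, 4.55 and 4.43 in HFD livers, 7.01, 7.09 and 6.63 in ND livers, and 7.29, 7.01 and 8.89 in PRF livers. The HFD livers were close together below all others, and PRF liver 10 was the highest. HFD minus the other 6 livers was -2.75 on average (standard error 0.40, adjusted p 0.0132), and the adjusted p was 0.0804 without HFD liver 2 and 0.111 without HFD liver 3. Igfbp2, which binds insulin-like growth factors, was 7.86, 6.7 and 7.15 in HFD livers, 9.38, 8.22 and 8.28 in ND livers, and 7.9, 8.3 and 8.61 in PRF livers. Its HFD livers were lowest, with HFD liver 1 just under PRF liver 3 (difference -1.21, adjusted p 0.103, not called). Igf1, the main growth hormone target, was 7.36, 7.34 and 7.13 in HFD livers, 7.49, 7.28 and 7.47 in ND livers, and 7.19, 7.13 and 7.59 in PRF livers, and its groups overlapped.

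Major urinary proteins are abundant, mostly male-biased liver products encoded by many near-identical genes, so the assignment of their reads is uncertain. Of 20 Mup genes in the tables, 10 were listed at 0 in all 9 livers, 7 were tested and 3 had the HFD livers above the others. Mup12 was 5.35, 6.04 and 6.23 in HFD livers, 0, 0 and 0 in ND livers, and 0, 0 and 0 in PRF livers. Mup8 was 1.79, 6.59 and 2.12 in HFD livers, 0, 0 and 0 in ND livers, and 0, 0 and 0 in PRF livers. Mup12, Mup8 and Mup17 were listed at 0 in all ND and PRF livers, so no fold is given, and they are the 3 members with one side at 0. The HFD levels of Mup12 were alike, while Mup8 was high in HFD liver 2 and Mup17 was near 0 in HFD liver 1. Mup20, an abundant relative, was 13.45, 12.42 and 12.67 in HFD livers, 13.47, 12.31 and 12.53 in ND livers, and 14.25, 14.1 and 14.44 in PRF livers, where HFD and ND livers overlapped and the PRF livers lay above both.

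Bile acid synthesis and transport held 1 higher (5%) and 1 lower member (5%) among 20 tested genes, with a median difference of 0.08. Cyp7b1, an oxysterol hydroxylase that is also male-biased, was 5.34, 5.65 and 5.45 in HFD livers, 6.73, 6.75 and 6.51 in ND livers, and 6.84, 6.18 and 7.23 in PRF livers. The HFD livers were lowest, and PRF liver 9 was the nearest of the others. The HFD mean minus the mean of the other 6 livers was -1.23 (standard error 0.19, adjusted p 0.0175), and the adjusted p was 0.0553 without HFD liver 1, 0.0732 without HFD liver 2 and 0.121 without HFD liver 3. Akr1d1, a reductase of bile acid synthesis, was 7.03, 6.77 and 6.95 in HFD livers, 6.5, 6.33 and 6.51 in ND livers, and 6.22, 6.4 and 6.46 in PRF livers. It was highest in the HFD livers. Compared with the other 6 livers, the HFD mean was higher by 0.52 (standard error 0.10, adjusted p 0.0405), which is below a fold of 2, and the adjusted p was between 0.0538 and 0.212 with any 1 of HFD livers 1, 2 or 3, ND livers 7 or 9 or PRF livers 3, 9 or 10 left out. The higher count of this list was 2 without HFD liver 1 or PRF liver 10, and the lower count was 2 without HFD liver 1, HFD liver 3, PRF liver 3 or PRF liver 9 and under quantile normalization.

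Of 16 tested genes of insulin and EGF receptor signaling, 2 (12.5%) had the HFD livers below the others and 0 above, with a median difference of -0.02, 1 below at a minimum of 10 FPKM and 2 above without HFD liver 1. Egfr, the epidermal growth factor receptor at chr11:16752203-16918158, was 4.92, 4.85 and 4.54 in HFD livers, 6.32, 6.05 and 6.79 in ND livers, and 6.46, 6.67 and 6.44 in PRF livers. Its HFD livers were far below the others, and ND and PRF livers overlapped. HFD minus the other 6 livers was -1.69 on average (standard error 0.16, adjusted p 0.0016), called in each of the 9 fits without 1 liver with an adjusted p of 0.0156 at most. In the 3-group fit HFD minus ND was -1.62 and HFD minus PRF was -1.76, comparisons that share the HFD livers. Fgfr4, a liver receptor for hormones of the fibroblast growth factor family, was 2.7, 2.72 and 2.59 in HFD livers, 3.21, 3.31 and 3.26 in ND livers, and 3.42, 3.07 and 2.92 in PRF livers. Lowest levels were in HFD livers there (difference -0.53, adjusted p 0.055, not called).

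Complement genes had the HFD livers below the others in 3 of 27 tested genes (11.1%) and above in 1 (3.70%), with a median difference of -0.25, beside a median PRF minus ND of 0.47. The number below was 5 without HFD liver 1 or ND liver 9 and under quantile normalization, and 7 without ND liver 6. The number above was 2 without HFD liver 1, HFD liver 3 or ND liver 6, and 0 at a minimum of 10 FPKM. C6, a protein of the membrane attack complex at chr15:4727175-4814967, was 4.61, 4.5 and 4.32 in HFD livers, 5.63, 5.69 and 5.78 in ND livers, and 6.5, 6.46 and 6.45 in PRF livers. Levels formed 3 separate bands, lowest in HFD and highest in PRF. The HFD mean minus the mean of the other 6 livers was -1.61 (standard error 0.22, adjusted p 0.0111), and the adjusted p was 0.0674 without HFD liver 2 and 0.095 without HFD liver 3. C8b, a further protein of that complex, was 6.37, 5.72 and 5.51 in HFD livers, 7.18, 7.17 and 7.11 in ND livers, and 7.19, 7.2 and 7.52 in PRF livers. HFD livers were lowest, HFD liver 1 least so, and ND and PRF livers lay close together. HFD minus the other 6 livers was -1.36 on average (standard error 0.17, adjusted p 0.00739), and the adjusted p was 0.0591 without HFD liver 2.

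C8a, the partner chain of C8b, was 7.41, 7.13 and 6.82 in HFD livers, 7.52, 7.81 and 7.44 in ND livers, and 8.39, 8.21 and 7.84 in PRF livers. HFD liver 1 lay just under ND liver 9, so the gene meets the rule by a small margin, with a difference of -0.75 (adjusted p 0.137, not called). C1s2, a protease gene that resembles C1s1, was 3.13, 2.96 and 2.96 in HFD livers, 2.71, 0 and 0.08 in ND livers, and 0, 0.03 and 0 in PRF livers. The HFD livers and ND liver 6 were high and the remaining livers were at or near 0 (difference 2.55, adjusted p 0.0609, not called). C1s2 was called in 1 of the 9 fits without 1 liver, the fit without ND liver 6, at an adjusted p of 3.05e-07. That liver was the only one of the ND and PRF livers near the HFD level. The adjusted p reached 0.254 in the other fits.

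**Figure D3:**
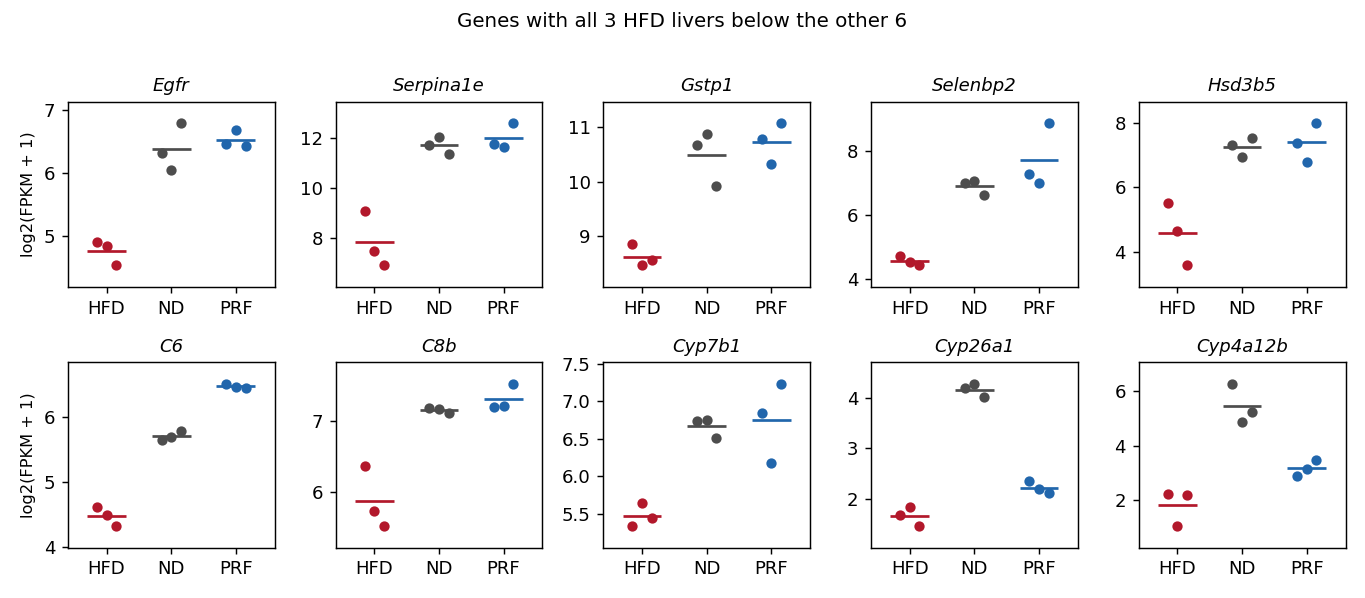
Level in log2(FPKM + 1) of selected genes with all 3 HFD livers below the other 6, with points and lines as before. For Egfr the HFD livers lie at 4.92 or less and the others at 6.05 or more.

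Conjugation and redox genes of the glutathione and NRF2 list had the HFD livers above the others in 3 of 29 tested genes (10.3%) and below in 2 (6.90%), with a median difference of 0.10, and 5 above without HFD liver 1 and 1 below at a minimum of 10 FPKM. Gstp1, a glutathione transferase, was 8.86, 8.47 and 8.56 in HFD livers, 10.67, 10.88 and 9.92 in ND livers, and 10.78, 10.33 and 11.08 in PRF livers. HFD livers were lowest by a wide margin. The HFD mean minus the mean of the other 6 livers was -1.98 (standard error 0.24, adjusted p 0.00577), called in each of the 9 fits without 1 liver. Gstp2, its neighbour, was 1.92, 1.7 and 1.29 in HFD livers, 2.49, 4.04 and 2.49 in ND livers, and 2.78, 2.0 and 3.04 in PRF livers, lowest in the HFD livers with a difference of -1.17 (adjusted p 0.166, not called). Gstp1 and Gstp2 sequences are alike, so their reads may be shared. Nqo1, a quinone reductase, was 2.86, 2.61 and 3.17 in HFD livers, 2.52, 2.32 and 2.05 in ND livers, and 2.24, 2.44 and 2.27 in PRF livers, highest in the HFD livers with a difference of 0.57 (adjusted p 0.079, not called). Gstk1, a transferase of mitochondria and peroxisomes, was 7.55, 7.73 and 7.84 in HFD livers, 7.37, 7.02 and 7.22 in ND livers, and 7.32, 7.42 and 7.24 in PRF livers, also highest in the HFD livers (difference 0.44, adjusted p 0.0917, not called).

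Some of the genes with the smallest p-values of the pooled fit are in none of the lists above. Slc22a27, an organic anion transporter, was 2.48, 3.26 and 2.93 in HFD livers, 0.68, 0.83 and 0.88 in ND livers, and 0.72, 0.92 and 0.34 in PRF livers. Slc22a29, a relative on chromosome 19, was 1.84, 1.97 and 2.35 in HFD livers, 0.30, 0.69 and 0.49 in ND livers, and 0.27, 0.86 and 0.23 in PRF livers. In both, the HFD livers were clear of the other 6, which were low and overlapped. The difference was 2.16 (adjusted p 0.000611) for Slc22a27 and 1.58 (adjusted p 0.00314) for Slc22a29. Adgrv1, a very large adhesion receptor, was 2.1, 1.91 and 1.82 in HFD livers, 0.20, 0.13 and 0.35 in ND livers, and 0.83, 0.42 and 0.72 in PRF livers. It was low in ND, somewhat higher in PRF and highest in HFD livers, with a difference of 1.5 (adjusted p 0.00362), and these 3 genes were called in each of the 9 fits without 1 liver. All 3 averaged under 1 FPKM in the ND and PRF livers and met the minimum through their HFD livers. The means of Slc22a29 without HFD liver 3 (0.993) and of Adgrv1 without HFD liver 1 (0.947) would miss the minimum, which those fits did not apply anew.

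Stap1, a signal-transducing adaptor, was 2.4, 2.91 and 2.55 in HFD livers, 1.23, 0.30 and 1.09 in ND livers, and 0.99, 0.86 and 0.25 in PRF livers. Slc17a8, a vesicular glutamate transporter, was 4.08, 4.14 and 3.59 in HFD livers, 2.26, 1.98 and 2.74 in ND livers, and 1.35, 1.9 and 2.14 in PRF livers. HFD livers were highest in both genes and the other 6 livers were spread. The difference was 1.83 (adjusted p 0.00742) for Stap1, and the adjusted p was 0.0591 without HFD liver 2. It was 1.87 (adjusted p 0.0097) for Slc17a8, and the adjusted p was 0.0674 without HFD liver 2.

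Among the lower genes, Tgm1, a transglutaminase, was 1.52, 1.47 and 1.37 in HFD livers, 2.4, 2.09 and 2.39 in ND livers, and 2.66, 2.97 and 2.69 in PRF livers. Cadm4, a cell adhesion molecule, was 1.58, 1.2 and 1.08 in HFD livers, 2.97, 2.63 and 2.47 in ND livers, and 2.34, 2.29 and 2.02 in PRF livers. HFD livers were lowest in both, with PRF above ND for Tgm1 and below ND for Cadm4. The difference was -1.08 (adjusted p 0.0153) for Tgm1, and the adjusted p was 0.086 without HFD liver 2 and 0.121 without HFD liver 3. It was -1.17 (adjusted p 0.0206) for Cadm4, and the adjusted p was 0.115 without HFD liver 2 and 0.158 without HFD liver 3. Tmem51, a membrane protein, was 1.31, 1.56 and 1.45 in HFD livers, 2.44, 2.58 and 2.01 in ND livers, and 3.36, 2.61 and 2.41 in PRF livers. Cdh1, the epithelial cadherin, was 2.24, 1.74 and 1.55 in HFD livers, 2.81, 2.96 and 2.36 in ND livers, and 3.44, 3.25 and 3.54 in PRF livers. HFD livers were lowest in both genes as well, but neither was called, with differences of -1.13 (adjusted p 0.0547) and -1.22 (adjusted p 0.0557).

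Of 31 tested genes of the urea cycle and amino acid metabolism, 1 (3.23%) had the HFD livers above the others and 2 (6.45%) below, with a median difference of -0.12. The number below was 11 without HFD liver 1, 4 without HFD liver 2, HFD liver 3 or ND liver 9, and 8 under quantile normalization, and the number above was 3 without HFD liver 1, HFD liver 2 or PRF liver 9 and 2 without ND liver 6. Got1, the cytosolic aspartate transaminase, was 5.47, 5.59 and 5.31 in HFD livers, 6.38, 6.17 and 6.42 in ND livers, and 6.13, 6.44 and 6.16 in PRF livers. HFD livers were lowest and ND and PRF livers overlapped. HFD minus the other 6 livers was -0.83 on average (standard error 0.11, adjusted p 0.00782), which is below a fold of 2, and the adjusted p was 0.0609 without HFD liver 3. Hal, which breaks down histidine, was lower (difference -0.33, adjusted p 0.197) and Glud1, the glutamate dehydrogenase, higher (difference 0.29, adjusted p 0.229) in the HFD livers, and neither was called.

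Acute phase proteins had the HFD livers above the others in 1 of 36 tested genes (2.78%) and below in 1. The median difference was -0.39, and the median of PRF minus ND over the same genes was 0.825, with no gene called between PRF and ND. Saa1, a serum amyloid singled out after its values were seen, was 8.44, 6.97 and 7.68 in HFD livers, 6.98, 7.03 and 6.49 in ND livers, and 12.46, 11.52 and 6.73 in PRF livers. PRF livers 3 and 9 stood far above all other livers, while HFD and ND livers and PRF liver 10 overlapped, so a negative difference here need not mean lower levels in HFD than in ND. The number below was 3 without HFD liver 1, HFD liver 2, ND liver 6 or PRF liver 9 and 2 without HFD liver 3. Orm1, an acid glycoprotein of plasma, was 9.51, 9.34 and 9.34 in HFD livers, 10.53, 10.18 and 9.94 in ND livers, and 10.99, 10.12 and 9.73 in PRF livers. The lowest Orm1 levels were in the HFD livers (difference -0.85, adjusted p 0.129), and the HFD livers were highest for Serpina3m, a protease inhibitor (difference 0.80, adjusted p 0.121), neither of them called. Of 21 tested coagulation genes, 1 (4.76%) had the HFD livers below the others, with a median difference of -0.22, and without HFD liver 1 the number below was 9. It was 2 without HFD liver 2 or ND liver 9, 3 without ND liver 6 and 0 under quantile normalization. That gene was Pros1, protein S, at 4.35, 4.23 and 4.41 in HFD livers, 4.44, 4.48 and 4.52 in ND livers, and 5.12, 5.14 and 4.74 in PRF livers, with HFD and ND livers close and PRF livers higher (difference -0.413, adjusted p 0.2966, not called).

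Of 27 tested genes of ER stress and the integrated stress response, 2 (7.41%) had the HFD livers below the others, against 3.15% of all genes tested, with 5 below without HFD liver 1 and 1 below at a minimum of 10 FPKM. Asns, the asparagine synthetase, was 0.36, 0.27 and 0.12 in HFD livers, 1.18, 0.77 and 1.28 in ND livers, and 1.65, 2.93 and 1.69 in PRF livers. Levels were lowest in the HFD livers for Asns (difference -1.33, adjusted p 0.123) and for Xbp1, a transcription factor of the unfolded protein response (difference -0.48, adjusted p 0.0609), neither of them called. Of 28 tested interferon and MHC class I genes, 1 (3.57%) had the HFD livers below the others, with 5 below without ND liver 9, 3 without HFD liver 2 and 2 without HFD liver 1, ND liver 7 or PRF liver 10 and under quantile normalization. The number above was 0, with 2 without HFD liver 1 or ND liver 6 and 1 without HFD liver 2. The gene below was Bst2, an antiviral membrane protein, at 6.82, 6.85 and 6.9 in HFD livers, 8.0, 7.37 and 7.37 in ND livers, and 7.32, 7.0 and 7.23 in PRF livers. Its difference was -0.525 (adjusted p 0.2027, not called). Of 13 tested chemokines, 0 had the HFD livers on either side, with 1 above with no minimum level, 3 below without ND liver 6 and 1 below without HFD liver 1.

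Of 34 tested respiratory chain genes, 2 (5.88%) had the HFD livers above the others and 0 below, beside 5.38% of all genes tested, and 8 did so without ND liver 6. They were Ndufs1 of complex I (difference 0.33, adjusted p 0.103) and Sdha of complex II (difference 0.22, adjusted p 0.327), not called. Of 17 tested clock genes, 2 (11.8%) had the HFD livers above the others, with 4 above without HFD liver 2 or ND liver 6 and 1 above at a minimum of 10 FPKM. The number below was 0, with 2 without HFD liver 2 and 1 under quantile normalization. Among the 2 genes above was Cry1, a clock repressor (difference 0.52, adjusted p 0.0576, not called).

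Of 12 tested cell cycle genes, 1 (8.33%) had the HFD livers above the others and 0 below, with 4 above without HFD liver 1 and 0 at a minimum of 10 FPKM. It was Cdkn1a, an inhibitor of cell division, with a difference of 0.96 (adjusted p 0.0702, not called). Cdkn1a averaged 1.265 FPKM over all livers, but its log2 mean in the ND and PRF livers was 0.747. As 1 FPKM is 1 on the log2 scale, Cdkn1a met the minimum of 1 FPKM through its HFD livers. Of 23 tested hepatokines, 1 (4.35%) had the HFD livers above and 1 below, and without HFD liver 1 the numbers were 3 and 4. The higher one was Sepp1, selenoprotein P, with a difference of 0.42 (adjusted p 0.185, not called). Without HFD liver 2 the hepatokine numbers were 3 and 2, and the higher one was 2 without HFD liver 3, ND liver 6 or PRF liver 9 and under quantile normalization. Of 21 tested annexin, S100 and galectin genes, 1 (4.76%) had the HFD livers above the others, with 5 above without HFD liver 1 and 2 above without HFD liver 2, ND liver 6 or PRF liver 9. It was Lgals1, a galectin, at 5.41, 6.7 and 7.1 in HFD livers, 5.21, 5.29 and 5.22 in ND livers, and 4.91, 4.68 and 3.96 in PRF livers, where HFD livers 2 and 3 were high and HFD liver 1 lay near the ND livers (difference 1.53, adjusted p 0.0884, not called).

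How PRF stood to ND was compared in a 3-group limma fit. It is a different contrast from HFD against the mean of both, but membership uses the same ND and PRF values. A gene in which an ND or PRF liver reaches the HFD livers is not a member. The shares among members, here and in the next paragraphs, are therefore shaped by the rule. The shares over all genes tested, given beside them, are not restricted in this way. Over all genes tested, 102 (1.02%) were called between PRF and ND, 52 lower (0.518%) and 50 higher (0.498%) in PRF, and among the members 7 of the 541 higher genes (1.29%) and 5 of the 317 lower genes (1.58%), 12 in all, were called. The rule asks only that ND and PRF lie on the same side of HFD. A p that misses the threshold does not show that PRF returned to the ND level. Leaving out single livers moved the numbers for all genes and for members to 21 and 3 without ND liver 6, 25 and 3 without ND liver 7, 26 and 2 without PRF liver 3, and 42 and 6 without HFD liver 2. They were 46 and 7 without HFD liver 3, 53 and 9 without PRF liver 9, 157 and 12 without PRF liver 10, 93 and 8 without ND liver 9, and 110 and 22 without HFD liver 1. A fit of the 6 ND and PRF livers alone called 38 genes, 4 of them members, and with no minimum level 25 genes were called, 4 of them members.

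The PRF mean was below the ND mean in 343 of the 541 higher genes (63.4%), in 188 of the 317 lower genes (59.3%) and in 5693 of all genes tested (56.7%). All 3 PRF livers lay below all ND livers in 77 higher genes (14.2%) and 32 lower genes (10.1%), beside 11.8% of all genes tested. All 3 PRF livers lay above all ND livers in 24 higher genes (4.44%) and 27 lower genes (8.52%), beside 8.09% of all genes tested.

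Of the 12 members called between PRF and ND, 6 of the 7 higher genes were lower in PRF than in ND, so that in them PRF lay on the far side of ND from HFD. PRF minus ND was -3.6 for Cyp4a14 (adjusted p 0.0261), and the adjusted p was 0.102 without ND liver 6, 0.089 without ND liver 7 and 0.0584 without PRF liver 3. It was -2.05 for Acot3 (adjusted p 0.028), and the adjusted p was 0.0507 without HFD liver 2, 0.102 without ND liver 6, 0.0933 without ND liver 7 and 0.0712 without PRF liver 3. For Acot1 it was -1.77 (adjusted p 0.0332), and the adjusted p was between 0.0529 and 0.13 with any 1 of HFD livers 2 or 3, ND livers 6 or 7 or PRF livers 3 or 9 left out. These genes were lowest in the PRF livers. For Acaa1b it was -1.32 (adjusted p 0.0132), and the adjusted p was 0.0626 without ND liver 6 and 0.0584 without PRF liver 3. For Acot4 it was -0.85 (adjusted p 0.0386), and the adjusted p was between 0.0529 and 0.148 with any 1 of HFD livers 2 or 3, ND livers 6, 7 or 9 or PRF livers 3 or 10 left out. The calls of Cyp4a14, Acot3, Acot1 and Acot4 ended with no minimum level and in the fit of ND and PRF livers alone, and that of Acot4 also under the criterion of a fold above 2.

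The remaining higher genes, Chpt1 and Dio1, lie outside the rule for named genes and were singled out after their values were seen. Chpt1, a phosphotransferase of phosphatidylcholine synthesis, was 7.33, 7.32 and 7.59 in HFD livers, 7.27, 7.2 and 7.12 in ND livers, and 6.56, 6.63 and 6.49 in PRF livers. HFD and ND livers were close and the PRF livers lower, with PRF minus ND at -0.64 (adjusted p 0.0312), and the adjusted p was between 0.0564 and 0.112 with any 1 of HFD liver 2, ND livers 6 or 7 or PRF livers 3, 9 or 10 left out. The Chpt1 call also ended with no minimum level, under quantile normalization, in the fit of ND and PRF livers alone and under the criterion of a fold above 2. Dio1, the deiodinase that activates thyroid hormone, was 7.36, 7.33 and 7.48 in HFD livers, 5.57, 5.81 and 6.34 in ND livers, and 7.16, 7.22 and 7.12 in PRF livers. PRF livers were near the HFD livers and above all ND livers, with PRF minus ND at 1.26 (adjusted p 0.0136), and the adjusted p was 0.0655 without ND liver 7 and 0.0581 without PRF liver 3. In the fit of ND and PRF livers alone Dio1 was not called.

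Among the lower genes, Cyp26a1, which clears retinoic acid, was 1.68, 1.83 and 1.45 in HFD livers, 4.18, 4.28 and 4.01 in ND livers, and 2.35, 2.2 and 2.11 in PRF livers. Lowest levels were in HFD livers, PRF livers lay a little above them, and ND livers were far higher. PRF minus ND was -1.94 (adjusted p 0.000159), called in each of the 9 fits without 1 liver, while HFD minus PRF was -0.57 and HFD minus ND was -2.5. In the pooled fit, HFD minus the other 6 livers was -1.535 for Cyp26a1 (adjusted p 0.2115, not called). Cyp4a12b had the same order, with PRF minus ND at -2.28 (adjusted p 0.0365), and the adjusted p was between 0.0529 and 0.121 with any 1 of HFD liver 3, ND livers 6, 7 or 9 or PRF livers 3 or 9 left out. The Cyp4a12b call ended as well with no minimum level, with a pseudocount of 0.1 and in the fit of ND and PRF livers alone. C6 was higher in PRF than in ND by 0.77 (adjusted p 0.0103), and the adjusted p was 0.0502 without ND liver 7, and it is below a fold of 2.

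Gcat and Unc93b1 also lie outside the rule for named genes and were singled out after their values were seen. Gcat, an enzyme of threonine breakdown, was 4.66, 4.43 and 4.44 in HFD livers, 5.53, 5.24 and 5.22 in ND livers, and 4.66, 4.72 and 4.82 in PRF livers. The PRF livers were just above the HFD livers, and PRF minus ND was -0.60 (adjusted p 0.0433), and the adjusted p was between 0.0535 and 0.151 with any 1 of HFD livers 2 or 3, ND livers 6, 7 or 9 or PRF livers 3, 9 or 10 left out. Unc93b1, a chaperone of toll-like receptors, was 3.63, 3.68 and 3.65 in HFD livers, 3.83, 3.8 and 3.71 in ND livers, and 4.42, 4.19 and 4.2 in PRF livers. HFD and ND livers were close and the PRF livers higher, with PRF minus ND at 0.49 (adjusted p 0.0426), and the adjusted p was between 0.0522 and 0.14 with any 1 of HFD livers 1, 2 or 3, ND livers 6, 7 or 9 or PRF livers 3, 9 or 10 left out. Both calls ended with no minimum level, in the fit of ND and PRF livers alone and under the criterion of a fold above 2, and that of Gcat also with a pseudocount of 0.1.

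**Figure D4:**
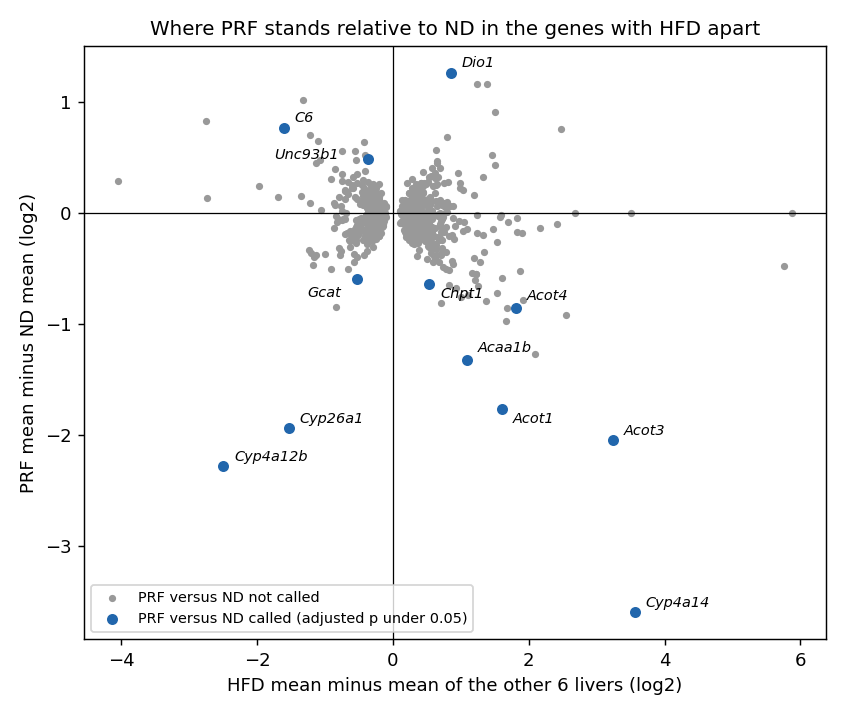
Each point is 1 of the 858 genes, with the HFD mean minus the mean of the other 6 livers (horizontal) and the PRF mean minus the ND mean (vertical), both in log2 units. The 12 genes called between PRF and ND are blue and named, from -3.60 for Cyp4a14 to 1.26 for Dio1.

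Retinoid handling, the pathway of Cyp26a1, had the HFD livers above the others in 4 of 20 tested genes (20%) and below in 1 (5%), with a median difference of 0.02, 2 below without HFD liver 2 and 0 below at a minimum of 10 FPKM. Retsat, a retinol saturase, was 7.77, 7.72 and 7.72 in HFD livers, 7.11, 7.28 and 6.97 in ND livers, and 6.01, 6.75 and 6.33 in PRF livers. Aldh1a1, which makes retinoic acid, was 9.85, 9.93 and 10.16 in HFD livers, 9.61, 9.59 and 9.18 in ND livers, and 9.27, 9.16 and 8.83 in PRF livers. Dhrs4, a retinal reductase, was 6.98, 6.99 and 7.0 in HFD livers, 6.82, 6.69 and 6.46 in ND livers, and 6.57, 6.52 and 6.49 in PRF livers. Levels were highest in the HFD livers in each, and none was called, with differences of 1.0 (adjusted p 0.0923) for Retsat, 0.70 (adjusted p 0.0932) for Aldh1a1 and 0.40 (adjusted p 0.0842) for Dhrs4.

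Positions of the members were compared within 100 kb on GRCm38. A neighbour with the HFD livers above the others was found for 66 of 523 higher genes with a known position (12.6%), beside 12.4% of all tested genes. A neighbour with the HFD livers below the others was found for 58 of 304 lower genes (19.1%), beside 10% of all tested genes, and this difference was not tested. Runs of lower genes included Nr2f6, Babam1, Dda1 and Bst2 at chr8:71374123-71537456 and Unc93b1, Gstp1 and Gstp2 at chr19:3935186-4046023. The runs were singled out after their positions were seen.

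Bulk liver RNA mixes cell types, and in it fewer cells of a type and less RNA per cell cannot be told apart. Kupffer cell markers (20 in the tables, Cd5l the most abundant, none at 0 in all livers) summed to 244, 324 and 327 FPKM in the HFD livers, 261, 358 and 409 in the ND livers, and 842, 499 and 616 in the PRF livers. HFD and ND livers overlapped and the PRF livers were highest. Of 19 tested Kupffer markers, 0 had the HFD livers on either side, with a median difference of -0.74, and 4 had them below without ND liver 6 and 1 without HFD liver 2, HFD liver 3 or PRF liver 9 and under quantile normalization. Sinusoidal endothelial markers (18, Clec4g the most abundant, none at 0 in all livers) summed to 44.2, 96.1 and 125 FPKM in the HFD livers, 103, 129 and 173 in the ND livers, and 100, 98.4 and 171 in the PRF livers. HFD liver 1 was the lowest, and the groups overlapped. Of 18 tested, 0 had the HFD livers on either side, with a median difference of -0.46, and 3 had them below without HFD liver 3 and 1 without ND liver 6, PRF liver 3 or PRF liver 9.

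Adipocyte markers (10 in the tables, Fabp4 the most abundant, Lep and Plin1 at 0 in all livers) summed to 12.6, 40.9 and 47.5 FPKM in the HFD livers, 21.1, 20.7 and 26.1 in the ND livers, and 17.3, 25.7 and 25.9 in the PRF livers. HFD livers 2 and 3 were the highest and HFD liver 1 the lowest of all. HFD liver 1 was also the lowest HFD liver in Cidec, Cd36, G0s2, Plin2, Plin4 and Lgals1. The part of these markers in those results was not tested. Of 3 tested, 0 had the HFD livers on either side, and all 3 had them above without HFD liver 1. Stellate cell and matrix markers (24, Dcn the most abundant, none at 0 in all livers) summed to 156, 194 and 163 FPKM in the HFD livers, 117, 144 and 184 in the ND livers, and 142, 204 and 238 in the PRF livers. The groups overlapped, yet 2 of 19 tested (10.5%) had the HFD livers above the others, 4 without HFD liver 1 and 0 at a minimum of 10 FPKM.

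These were the collagen genes Col1a1 and Col3a1. Col1a1 was 1.15, 1.73 and 1.39 in HFD livers, 0.65, 0.62 and 0.68 in ND livers, and 0.91, 0.99 and 0.99 in PRF livers. All ND and PRF livers were under 1 on the log2 scale, on which 1 FPKM is 1. Col1a1 therefore met the minimum (mean 1.08 FPKM) only through its HFD livers. Col3a1 was 2.53, 2.97 and 2.59 in HFD livers, 1.54, 1.7 and 2.24 in ND livers, and 2.17, 2.15 and 2.51 in PRF livers. Both were highest in the HFD livers, with differences of 0.62 (adjusted p 0.0822) and 0.65 (adjusted p 0.168), and neither was called. Markers of T, NK and B cells and neutrophils (19, S100a8 the most abundant) summed to 7.26, 6.42 and 7.87 FPKM in the HFD livers, 11.2, 17.3 and 10.9 in the ND livers, and 66, 25 and 9.99 in the PRF livers. The HFD sums were the lowest, 0 of the 3 tested genes had the HFD livers on either side, 3 genes of the list had them below with no minimum level, and 1 did without HFD liver 1 or ND liver 6.

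**Figure D5:**
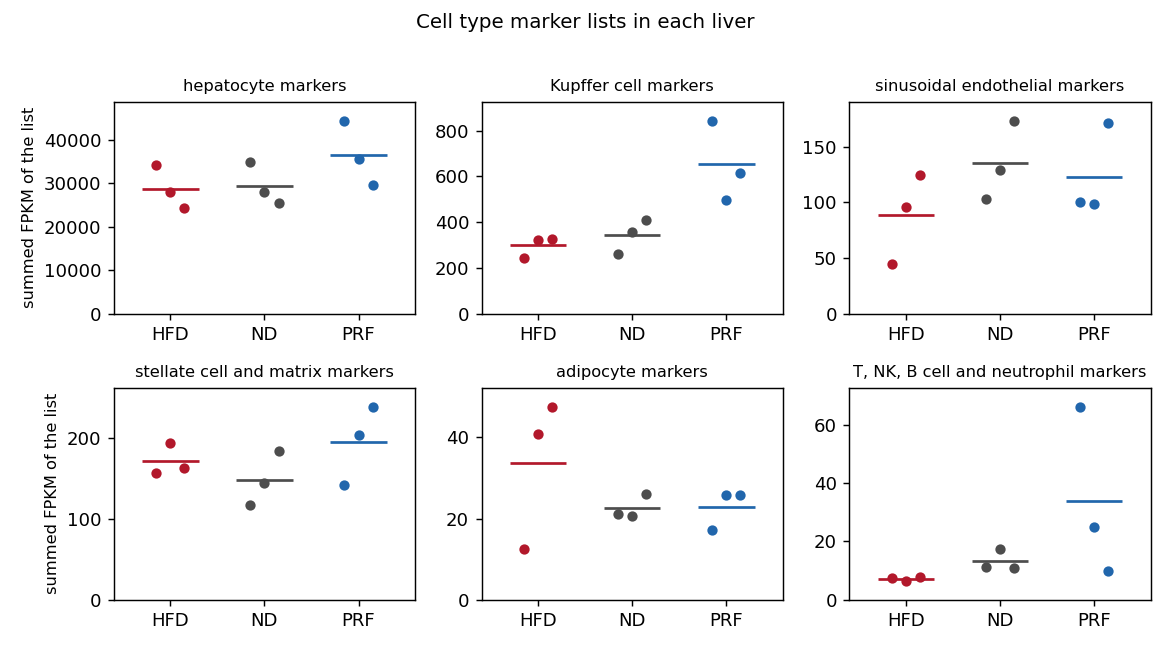
Summed FPKM of the markers of 6 cell types, with points for livers and lines for group means. Kupffer sums run from 244 to 409 in HFD and ND livers and from 499 to 842 in PRF livers.

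Recruited macrophage markers (15, Spp1 the most abundant) summed to 46.3, 56.5 and 42.8 FPKM in the HFD livers, 48.2, 49 and 54.6 in the ND livers, and 80.7, 56.8 and 56.9 in the PRF livers, the highest, and 0 of 6 tested had the HFD livers on either side. Without PRF liver 10, 1 had them below, and with no minimum level 1 had them above. Cholangiocyte markers (10, Tff3 the most abundant) summed to 47.9, 43.9 and 30.1 FPKM in the HFD livers, 33.6, 33.3 and 36.6 in the ND livers, and 126, 349 and 77 in the PRF livers, and 0 of 3 tested were members. Erythroid markers had 0 members among 4 tested and pancreatic acinar markers had 0 among 1 tested, and each of the cholangiocyte and acinar lists had 1 below without HFD liver 1. Of 15 tested hepatocyte markers, 1 (6.67%), Apob, had the HFD livers above the others and 0 below, with 4 below without HFD liver 1, 1 below without ND liver 6 or PRF liver 10, 2 above without ND liver 6 or PRF liver 9, and 2 below and 0 above under quantile normalization.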

How the data were processed

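Liver mRNA of 9 mice was sequenced from directional libraries, and the deposited tables hold log2(FPKM + 1) for 23183 genes per liver, where the pseudocount of 1 is inferred. The submitters' processing notes name TopHat with mm10, and the study's methods name Cufflinks for FPKM and edgeR for geometric normalization. Here the 3 HFD livers were set against the other 6 pooled in limma 3.58.1 (R 4.3.3, trend), over the 10048 genes averaging 1 FPKM or more, with Benjamini-Hochberg adjustment, and PRF against ND in a 3-group fit. Relative depth was 0.966 to 1.60. The procedure was tested on simulated data.

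Members and gene lists were chosen with earlier results of these data known. Named genes were the 12 members with the smallest p in each direction and up to 4 members of each list with the largest differences. Some of these genes are not used here. Values are also printed for genes outside this rule. Among them, Cpt1a, Ehhadh, Cyp4a10, Fasn, Scd1, Srebf1, Sqle, Pck1, Igf1 and Mup20 are not members. Positions came from GENCODE M21 and promoters from RefSeq (GRCm38.p6). Alternatives changed the grouping, minimum level, pseudocount, scaling, moderation, criterion and each liver in turn.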

Additional observations from a re-analysis of the deposited data

How the results depend on the processing

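The pooled comparison of HFD with the other 6 livers gave 185 higher and 66 lower genes in the 3-group fit, where the difference between ND and PRF is no longer error, and 34 lower genes under quantile normalization. For PRF against ND, the fit of ND and PRF livers alone called 38 genes, 4 of them with the HFD livers apart, the absence of a minimum level gave 25 and 4, and an unadjusted p under 0.05 with a fold above 2 gave 176 genes. A minimum of 10 FPKM, under which fewer genes are tested, left 333 genes with the HFD livers above and 111 with them below. Otherwise the cause was not tested. Among the called named genes, Mup12, Slc22a27, Slc22a29, Adgrv1, Stap1, Cyp2b13, Plin4 and Cyp2a4 averaged under 1 FPKM in the ND and PRF livers and were tested because of their HFD livers, and the means of Slc22a29, Adgrv1, Cyp2b13 and Cyp2a4 fall under it without 1 HFD liver, where the fits kept them. Without 1 liver at a time, genes called higher ranged from 14 to 138, genes called lower from 4 to 37, genes called between PRF and ND from 21 to 157, those among them with the HFD livers apart from 2 to 22, genes with the HFD livers above from 590 to 980 and genes with them below from 365 to 791. Some lists with 0 genes on 1 side gained 1 there under an alternative, and not all of these gains are printed.

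PRF minus ND was followed under the alternatives only for the genes with the smallest p in the pooled comparison and the genes with the HFD livers apart that were called between PRF and ND. Among these it changed sign for 9 genes when 1 liver was left out, and none of these values was called. The ranges were -0.92 to 0.175 for Cyp2b9, -0.155 to 0.37 for Cyp7b1, -0.032 to 0.34 for Egfr, -0.044 to 0.44 for Gstp1, -0.17 to 0.44 for Hsd3b5, -0.018 to 0.47 for Serpina1e, -0.27 to 0.026 for Slc22a27, -0.24 to 0.073 for Slc22a29 and -0.46 to 0.055 for Stap1.

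No paired analysis was possible because no library number is shared by all groups and numbers do not mark the same mouse. With 3 livers per group, a difference that was not called is not shown to be absent. Depth is known only in relative terms, so the precision of low values is unknown, and a listed 0 gives no upper limit.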
